A study of Homo sapiens with 7 samples.

Results

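Selenoprotein genes encode proteins that hold selenocysteine, an amino acid written in the mRNA as an in-frame UGA, which elsewhere is a stop codon. The 10 genes described here were taken by symbol from the 20072 gene symbols of the deposited table. They were GPX1, GPX2 and GPX4 of the glutathione peroxidases, TXNRD1 and TXNRD2 of the thioredoxin reductases, the selenophosphate synthetase SEPHS2, and SEPW1, SELT, SELK and SEPN1, which current nomenclature lists as SELENOW, SELENOT, SELENOK and SELENON. All 10 had values in the table and all passed the filter on low values, GPX2 only through its transcription rate. The 3 parameters compared in HCT116 cells in log phase were the transcription rate (TR), measured with GRO-seq in 2 libraries, the mRNA abundance (RA), measured with RNA-seq in 3, and the translation activity (TA), measured with polysome profiling in 2. HCT116 is an established human colorectal carcinoma line, here 1 line under 1 culture condition with no treatment. GRO-seq sequences the transcripts that are being elongated when nuclei are isolated, and TA is the mRNA in the polysome fractions of a sucrose gradient, from cells given cycloheximide before lysis. All cells grew without serum, in McCoy's 5A medium with epidermal growth factor, insulin and transferrin, and whether selenium was supplied is not given in the sources used here. The study describes dividing log-phase cells into 3 portions, 1 for each parameter. Which libraries came from the same cells is not given in the sources used here, and the main test treats them as unpaired. The study calls the libraries of a parameter biological replicates, the labels name no separate cultures, and the p-values below cover only the spread between these libraries.

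A ribosome that meets a UGA in these mRNAs either stops or inserts selenocysteine. Insertion needs a stem-loop in the 3′ untranslated region, the SECIS element, which binds SECISBP2 and recruits the elongation factor EEFSEC with a dedicated tRNA. The selenoproteins of epithelial cells are mostly oxidoreductases with the selenocysteine in the active site. They reduce peroxides (GPX1, GPX2, GPX4), regenerate reduced thioredoxin (TXNRD1, TXNRD2), or act in the endoplasmic reticulum (SELT, SELK, SEPN1). A UGA that is read as a stop well upstream of the last exon junction can send an mRNA to nonsense-mediated decay.

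The UGA is the feature that the genes share, and its place in the coding sequence differs between them. The sequences below show it for the genes with a called translation index (GPX1, GPX4, SEPW1, SELT), for the genes with the UGA at the end of the coding sequence (TXNRD1, TXNRD2, SELK), and for the only UGA that is not followed by G. Each is the sense strand of the spliced canonical transcript in GENCODE release 44 on GRCh37, the build that hg19 also names, and the capitals mark the UGA, written as TGA. The coordinates are those of the TGA.
GPX1, codon 49 of 203, exon 1 of 2, chr3:49395565-49395567, minus strand: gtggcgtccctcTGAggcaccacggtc
GPX4, codon 73 of 197, exon 3 of 7, chr19:1105402-1105404, plus strand: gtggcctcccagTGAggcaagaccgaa
SEPW1, codon 13 of 87, exon 2 of 6, chr19:48283989-48283991, plus strand: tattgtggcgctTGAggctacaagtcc
SELT, codon 49 of 195, exon 2 of 6, chr3:150340179-150340181, plus strand: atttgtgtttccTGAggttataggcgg
TXNRD1, codon 648 of 649, exon 17 of 17, chr12:104742191-104742193, plus strand: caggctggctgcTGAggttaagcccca
TXNRD2, codon 523 of 524, exon 17 of 18, chr22:19864634-19864636, minus strand: gtgacaggctgcTGAgggtaagcgcca
SELK, codon 92 of 94, exon 4 of 5, chr3:53919858-53919860, minus strand: atggctggtggaTGAggaaggtaaatg
SEPN1, codon 127 of 590, exon 3 of 13, chr1:26128584-26128586, plus strand: ccctggctcaatTGAtcctcctgcctc

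SEPN1 had another UGA at codon 462, so the 10 transcripts held 11, of which 10 were followed by G and 1 by T. In GPX2 the UGA was codon 40 of 190 and in SEPHS2 codon 60 of 448. In 7 of the 10 genes a UGA lay more than 50 bases upstream of the last exon junction, at a distance between 71 bases in TXNRD2 and 1221 bases in SEPN1. The 1221 bases are those of codon 127 of SEPN1, and its UGA at codon 462 lay 216 bases upstream. Which transcript forms of SEPN1 gave the reads was not tested. In SELK it lay 5 bases before that junction, in TXNRD1 it was in the last exon, and SEPHS2 has 1 exon. The untranslated regions took between 18.9% of the transcript in TXNRD2 and 82.9% in SELT.

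**Figure D1:**
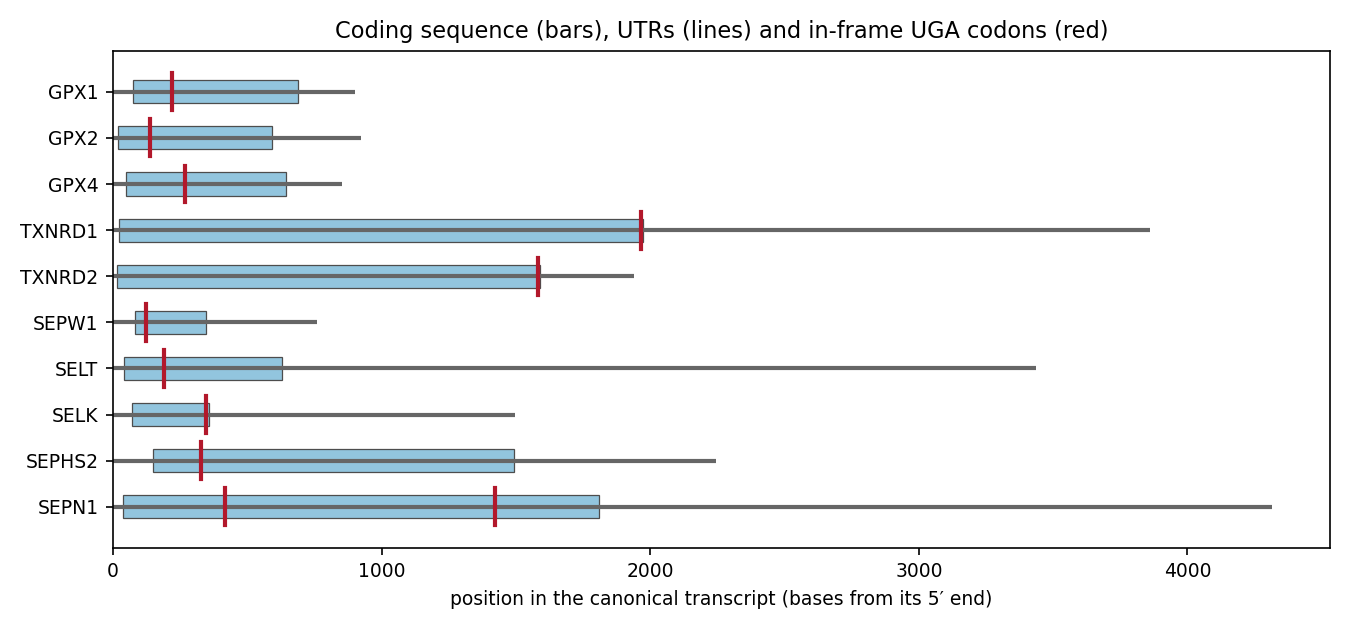
Canonical transcripts of the 10 genes drawn to scale, in bases from the 5′ end, with the coding sequence as a bar, the untranslated regions as lines and each in-frame UGA as a red mark. TXNRD1, TXNRD2 and SELK carry the UGA within 3 codons of the stop codon, and the other 7 genes carry it earlier.

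The authors deposited RPKM, the reads over a gene's exons per kilobase and scaled to a read total of the library, so values can be compared between genes per length. The study names mapped reads as that total. Library sizes, worked out from the values, ran from 3391897 to 30805391 reads, and the TR libraries were the smallest. Of each size, between 99.7% and 99.8% were reads on the listed genes, in GRO-seq too. The total used for scaling was thus close to the reads counted on genes. The 10 genes held between 58 and 1161 reads each in the TR libraries. Without GPX2 they held between 390 and 13852 in the RA libraries and between 249 and 10990 in the TA libraries. RPKM is a share of a library and carries no number of molecules per cell, and in pooled cells fewer expressing cells and less RNA per cell cannot be told apart. Of the epithelial markers EPCAM, KRT8, KRT18, KRT19 and CDH1 were at 20.03 RPKM or more in every library, while VIL1 and CEACAM5 had at most 3 reads in any RA or TA library. Markers of leukocytes, endothelium and hepatocytes (PTPRC, PECAM1, ALB) stayed under 0.5 RPKM, COL1A1 lay between 10.1 and 13.8 RPKM in RA, and the muscle marker DES stood at 48.5 RPKM in TR replicate 1 against 0.632 in replicate 2. Their part in the values of the selenoprotein genes was not tested.

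GPX1, the cytosolic glutathione peroxidase that reduces hydrogen peroxide, had the highest TR of the 10 genes. Its TR was 93.0 and 93.4 RPKM, its RA 74.7, 50.2 and 71.3 RPKM, and its TA 16.7 and 40.9 RPKM. Every RA library was below both TR libraries, and both TA libraries were below every RA library. GPX4, which reduces lipid hydroperoxides in membranes and guards cells against ferroptosis, read 71.6 and 72.9 RPKM in TR, 171, 135 and 180 RPKM in RA, and 39.5 and 105 RPKM in TA. Its RA was thus the highest of the 10 genes and lay above TR in each library. The TA libraries of GPX4 differed from each other by more than TR and RA did from their own replicates. GPX2, the glutathione peroxidase of the gut epithelium, was read in TR at 15.1 and 16.5 RPKM, from 77 and 139 reads. In RA it had 2, 8 and 4 reads, or 0.0657, 0.237 and 0.130 RPKM, and in TA it had 2 reads in replicate 1 and 0 in replicate 2. TA was therefore under the detection floor of 3 reads, which stood for 0.0650 and 0.0893 RPKM in these libraries, and no fold against TA is given for GPX2.

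TXNRD1, the cytosolic thioredoxin reductase and a target of NRF2, had the highest RA after GPX4. It read 43.3 and 44.7 RPKM in TR, 82.1, 133 and 91.3 RPKM in RA, and 77.4 and 46.8 RPKM in TA. All RA libraries were above TR, and both TA libraries were below the lowest RA library. TXNRD2, the mitochondrial reductase, was among the least abundant of the 10, with 7.12 and 8.01 RPKM in TR, 9.14, 6.20 and 6.19 RPKM in RA, and 10.7 and 11.2 RPKM in TA. Its TR lay within the range of RA, and both TA libraries were above every RA library.

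SEPHS2, the selenoprotein that makes the selenophosphate from which selenocysteine is built, read 68.1 and 79.0 RPKM in TR, 47.2, 121 and 53.4 RPKM in RA, and 56.6 and 31.2 RPKM in TA. RA replicate 2 stood at more than the sum of the other RA libraries, and the range of RA took in both TR libraries and TA replicate 1. SEPW1, a small cytosolic selenoprotein of the thioredoxin-like fold, read 70.0 and 70.2 RPKM in TR, 84.6, 53.1 and 75.4 RPKM in RA, and 9.19 and 30.0 RPKM in TA. Here TR fell inside the range of RA, and TA was the parameter apart from both. SELT, a thioredoxin-like protein of the endoplasmic reticulum membrane, read 8.19 and 7.74 RPKM in TR, 11.4, 12.5 and 15.7 RPKM in RA, and 4.72 and 9.10 RPKM in TA. RA was above TR and TA in every library.

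SELK, an endoplasmic reticulum membrane protein that works with the palmitoyltransferase ZDHHC6, was ordered alike in every library, with 20.9 and 21.9 RPKM in TR, 54.1, 62.9 and 59.5 RPKM in RA, and 80.2 and 75.1 RPKM in TA. No library of one parameter overlapped with another parameter. SEPN1, a membrane oxidoreductase of the endoplasmic reticulum whose loss causes a congenital myopathy, read 47.8 and 41.5 RPKM in TR, 49.0, 18.4 and 38.5 RPKM in RA, and 12.0 and 28.4 RPKM in TA. Its RA overlapped with both other parameters.

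**Figure D2:**
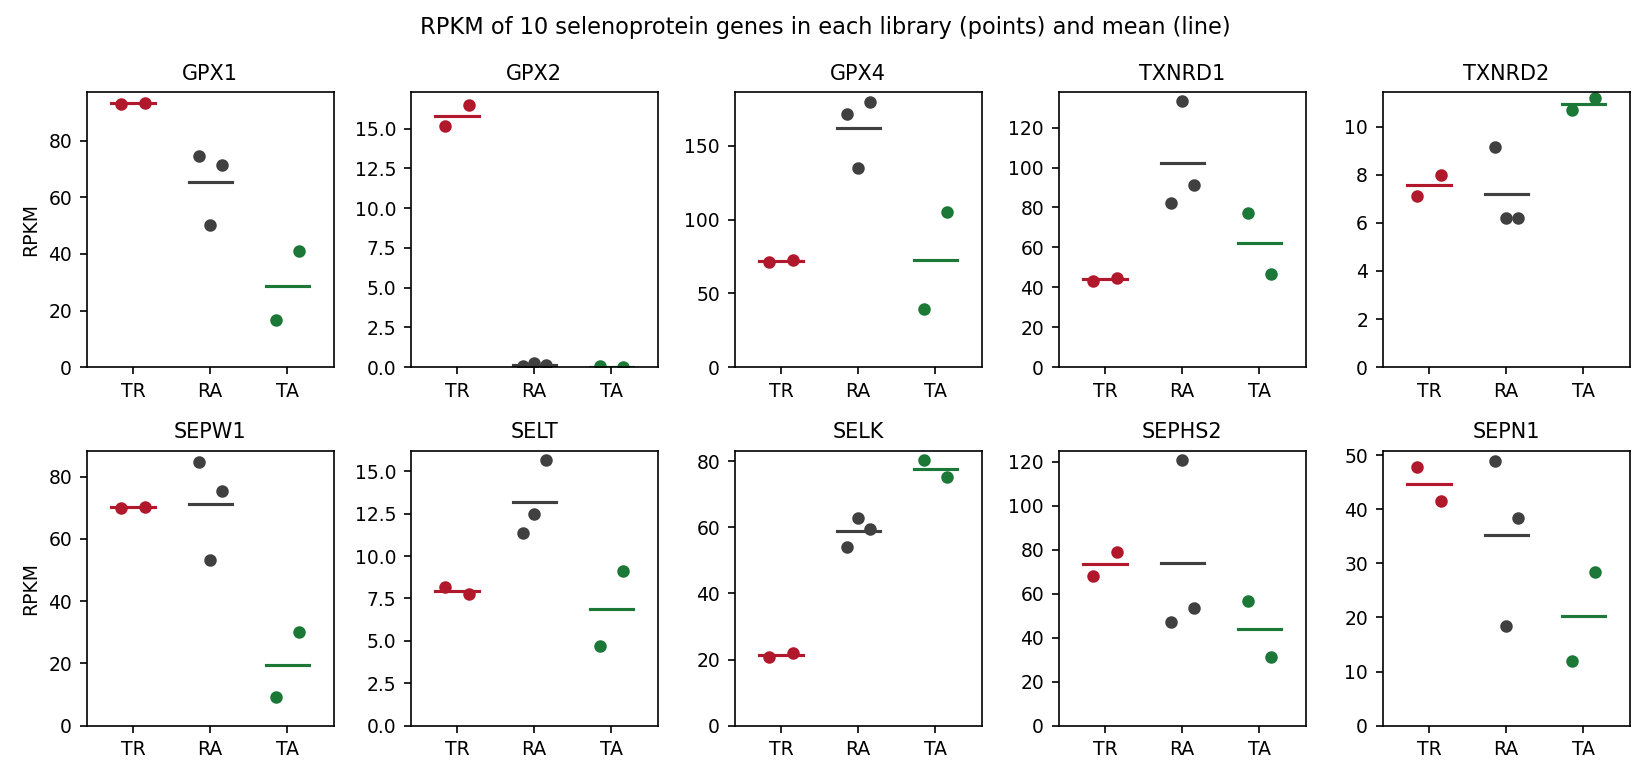
RPKM (linear axes from 0, own scale for each gene) of the 10 selenoprotein genes in each of the 2 TR, 3 RA and 2 TA libraries, as points, with the mean as a line. SELK rises from TR to RA to TA with no overlap, GPX2 is near 0 in RA and TA, and the TA libraries of GPX1, GPX4 and SEPW1 lie far apart.

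In TR the order of the means was GPX1 (93.2 ± 0.306 RPKM, SD, n = 2), SEPHS2 (73.6 ± 7.73), GPX4 (72.2 ± 0.889), SEPW1 (70.1 ± 0.156), SEPN1 (44.6 ± 4.52), TXNRD1 (44.0 ± 1.02), SELK (21.4 ± 0.726), GPX2 (15.8 ± 0.938), SELT (7.97 ± 0.324) and TXNRD2 (7.57 ± 0.622). Of the 9 neighbouring pairs in this order, 3 overlapped in their libraries, those of SEPHS2 with GPX4, SEPN1 with TXNRD1 and SELT with TXNRD2. In RA the order was GPX4 (162 ± 23.5 RPKM, SD, n = 3), TXNRD1 (102 ± 27.3), SEPHS2 (73.7 ± 40.7), SEPW1 (71.0 ± 16.2), GPX1 (65.4 ± 13.3), SELK (58.8 ± 4.43), SEPN1 (35.3 ± 15.5), SELT (13.2 ± 2.24), TXNRD2 (7.18 ± 1.70) and GPX2 (0.144 ± 0.0865). The 4 overlapping pairs ran from TXNRD1 through SEPHS2, SEPW1 and GPX1 to SELK, each gene overlapping with the next, while TXNRD1 was above GPX1 and SELK in every library. GPX4 held 27.5% of the summed RA of the 10 genes. In TA the order was SELK (77.7 ± 3.65 RPKM, SD, n = 2), GPX4 (72.5 ± 46.6), TXNRD1 (62.1 ± 21.6), SEPHS2 (43.9 ± 18.0), GPX1 (28.8 ± 17.1), SEPN1 (20.2 ± 11.6), SEPW1 (19.6 ± 14.7), TXNRD2 (10.9 ± 0.361), SELT (6.91 ± 3.10) and GPX2 (0.0217 ± 0.0306). From SELK down to TXNRD2 each gene overlapped with the next, 7 of 9 pairs in all, so the TA libraries separate only SELT and GPX2 from the gene above them. The summed level of the 10 genes was 445 and 456 RPKM in TR, between 584 and 593 RPKM in RA, and 307 and 378 RPKM in TA.

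The comparison of RA with TR asks how far mRNA abundance departs from the transcription rate, and its log2 ratio is used as the stability index. SELK, TXNRD1 and GPX4 had a higher RA than TR, and 6 of the other genes did not pass the test. GPX2 entered the test only through its high TR, so its lower RA is given as a description with no test. SELK had an index of 1.45 (standard error 0.15, a 2.73-fold difference, adjusted p = 7.28e-05), at the 94.1st percentile of all genes tested. TXNRD1 had 1.18 (standard error 0.28, 2.27-fold, adjusted p = 0.00593) and GPX4 had 1.15 (standard error 0.37, 2.23-fold, adjusted p = 0.0249). The fitted index of GPX2 depends on the pseudocount, lying between -6.84 and -3.88 for pseudocounts from 0.01 to 1, and RA replicate 1 was under the floor of 3 reads. The ratio of its mean RPKM was -6.78 on the log2 scale. SELT, at 0.71 with an adjusted p of 0.0604, had RA above TR in all library pairs and missed the threshold. For GPX1 (-0.53), SEPN1 (-0.45), SEPHS2 (-0.13), TXNRD2 (-0.10) and SEPW1 (-0.01) the 95% intervals of the difference included 0, the widest of them reaching from -1.52 to 0.63 in SEPN1. These values come from limma on log2(RPKM + 0.1) with Benjamini-Hochberg adjustment over 14305 genes at a threshold of 0.05. The scale understates the change of low genes. Each gene has 1 spread, taken from all 7 libraries. The TA libraries thus enter the standard error of the stability index, and the TR libraries that of the translation index.

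The count of called members is read against all genes tested. Of these, 19.2% had a higher RA and 48.0% a lower one, against 3 and 0 of the 9 selenoprotein genes other than GPX2. Unlike the 9, all genes tested include genes that passed the filter only through TR, here and in the shares and medians below. Where the means of TR, RA and TA all had to reach 1 RPKM, 10825 genes were left. Of them 2632 were higher and 3656 lower, a smaller lower share, and the members kept 3 and 0. Libraries did not overlap upward for 4 of these 9 and downward for 1, where 24.3% and 54.9% of all genes did so. The members had a median stability index of -0.05, and of -0.01 without GPX2, beside -0.58 over all genes. Both zero points rest on the scaling of the libraries, because RPKM is relative to the read total of a library. Centring each library on its median moved every stability index up by 0.67 and every translation index up by 0.50, and turned 2743 higher and 6870 lower calls among all genes into 5066 and 4814. SELK, TXNRD1 and GPX4 stayed higher under that centring, with SELT at 1.38 (adjusted p = 0.00222) and TXNRD2 at 0.58 (adjusted p = 0.0472) also called higher, which makes 5 members. The GPX4 call depended on single libraries, since the adjusted p was 0.148 without either TR library, 0.0537 without RA replicate 1 and 0.0697 without RA replicate 3, while the index stayed between 1.08 and 1.28. TXNRD1 lost its call without TR replicate 1 (0.0637) or TR replicate 2 (0.0609), and the index itself stayed between 0.97 and 1.32 over the libraries left out. SELK was called whichever library was left out.

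The comparison of TA with RA asks how much of an mRNA is found on polysomes, and its log2 ratio is the translation index. SEPW1, GPX4, GPX1 and SELT had a lower TA than RA, and no member had a higher TA by the test. SEPW1 had the lowest index, -2.06 (standard error 0.44, 4.18-fold lower, adjusted p = 0.0111), and stood at the 1.24th percentile of all genes tested. GPX4 had -1.32 (standard error 0.37, 2.49-fold lower, adjusted p = 0.0287), GPX1 had -1.30 (standard error 0.36, 2.46-fold lower, adjusted p = 0.0259) and SELT had -0.98 (standard error 0.29, 1.98-fold lower, adjusted p = 0.0328). In these 4 genes TA was below RA in all 6 pairs of libraries. The test was missed by TXNRD1 at -0.73 (adjusted p = 0.0746), SEPN1 at -0.82 (0.203) and SEPHS2 at -0.68 (0.240). TXNRD2 at 0.62 (adjusted p = 0.0629) and SELK at 0.40 (0.0757) were the only members with an index above 0, and both had TA above RA in all 6 pairs of libraries. For GPX2, with TA under the floor, the index is not a measure of translation.

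Among all genes, 29.2% had a lower translation index by the test and 6.66% a higher one, against 4 and 0 of the 9 selenoprotein genes other than GPX2. Where the means of TR, RA and TA all had to reach 1 RPKM, 3224 of 10825 genes were lower and 960 higher. At an unadjusted p under 0.05, 7 of these 9 passed in limma, of which TXNRD2 and SELK had the higher TA, where 6768 of all 14305 genes passed. Libraries did not overlap downward for 5 of the 9 and upward for 2, against 43.8% and 14.4% of all genes. The members' median was -0.89, or -0.82 without GPX2, beside -0.37 over all genes. With libraries centred on their medians, 953 higher and 4173 lower calls among all genes became 2713 and 1404. TXNRD2 at 1.13 (adjusted p = 0.00939) and SELK at 0.90 (adjusted p = 0.00739) then had a higher index and SEPW1, at -1.56 (adjusted p = 0.0264), a lower one, while GPX1 (-0.80), GPX4 (-0.81) and SELT (-0.48) kept their sign and lost the call. The calls also depended on single libraries. Without TA replicate 1 the indices of GPX4, GPX1 and SELT were -0.61, -0.66 and -0.52 and only SEPW1 passed, at -1.22. Without TA replicate 2 the indices of SEPW1, GPX4, GPX1 and SELT were -2.91, -2.02, -1.94 and -1.45, and all 4 passed. Without RA replicate 3 only SEPW1 passed, and without RA replicate 1 SEPW1 and SELT had a lower index and TXNRD2, at 0.81 (adjusted p = 0.0156), a higher one. Without RA replicate 2 SEPN1 joined the 4 genes, at -1.23 (adjusted p = 0.0347). Leaving out either TR library keeps the translation indices as they are. It takes a degree of freedom and the difference between the TR libraries out of the shared spread. The calls of SEPW1, GPX4, GPX1 and SELT were then lost. With the replicate numbers as a block no member had a lower translation index by the test, and all genes gave 109 higher and 1387 lower calls. Other pairings are given in the closing section.

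**Figure D3:**
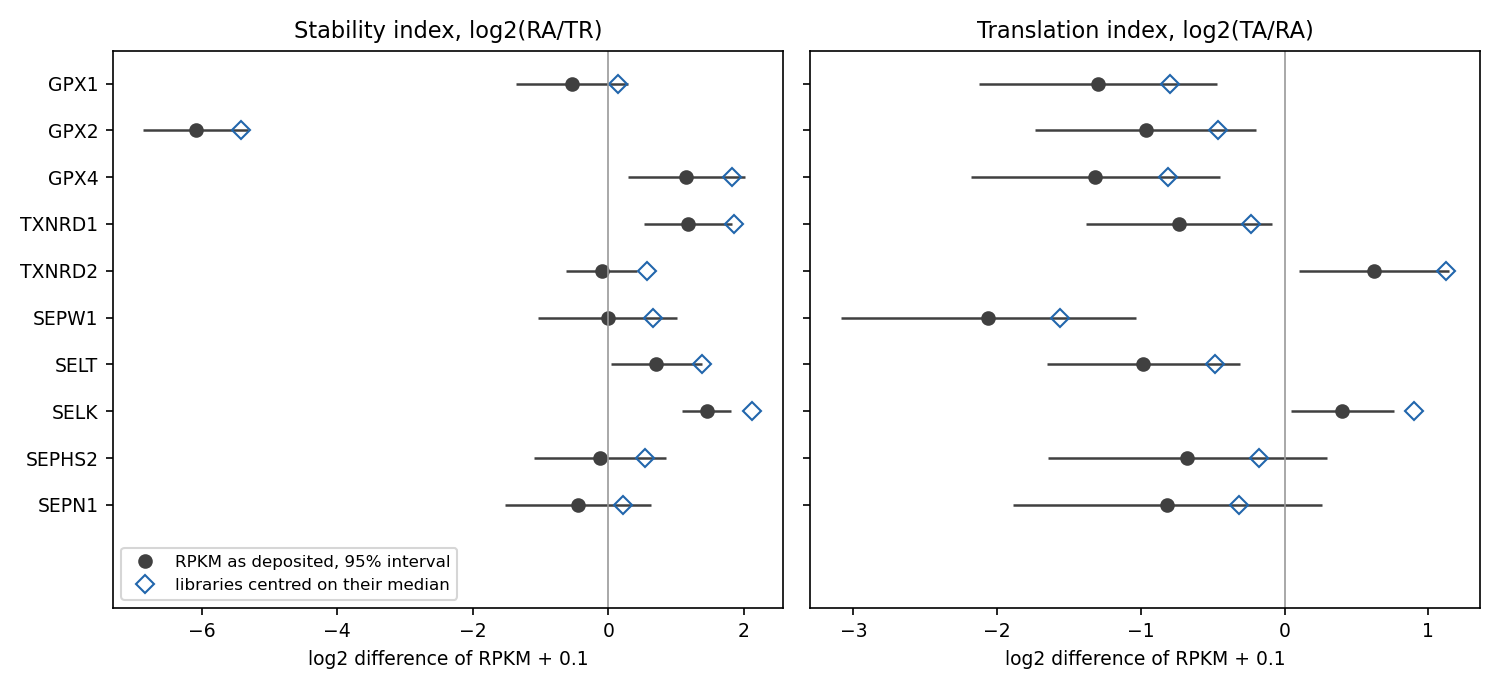
Stability index (left) and translation index (right) of the 10 genes as log2 differences of RPKM + 0.1, with the values as deposited as filled circles with 95% intervals from limma and the values after centring each library on its median as open diamonds. GPX2 is drawn with the others but passed the filter only through TR. Its TA is under the floor, so its intervals are not to be read as tests. Centring moves each stability index by 0.67 and each translation index by 0.50, which carries GPX1, TXNRD2, SEPW1, SEPHS2 and SEPN1 across 0 in the stability index and no gene in the translation index.

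From TR to TA, SELK had the only higher call, 1.85 (standard error 0.17, 3.61-fold, adjusted p = 2.31e-05). GPX1 at -1.83 (standard error 0.39, adjusted p = 0.00302) and SEPW1 at -2.07 (standard error 0.49, adjusted p = 0.00483) were lower, and TXNRD2 at 0.53 and TXNRD1 at 0.45 had TA above TR in all library pairs without passing. GPX2 is left out of these counts. Among all genes, which include genes that passed the filter only through TR, 17.0% were higher and 57.5% lower, or 2439 and 8231 genes. Centring changed these to 5436 and 5044. Where the means of TR, RA and TA all had to reach 1 RPKM, 2336 of 10825 genes were higher and 4935 lower, without centring. After centring GPX1 and SEPW1 were no longer called, at -0.65 and -0.90, and SELK, TXNRD1, TXNRD2, GPX4 and SELT were higher. SEPW1 also lost its call without TR replicate 1 (adjusted p = 0.0569) or TR replicate 2 (0.0587). GPX4 was at -0.16 and SELT at -0.28, neither called. Without TA replicate 1 these values were 0.54 and 0.19, and without TA replicate 2 they were -0.87 and -0.74, both then called lower. The stability, translation and TA against TR values share libraries, and no relation between them is drawn.

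**Figure D4:**
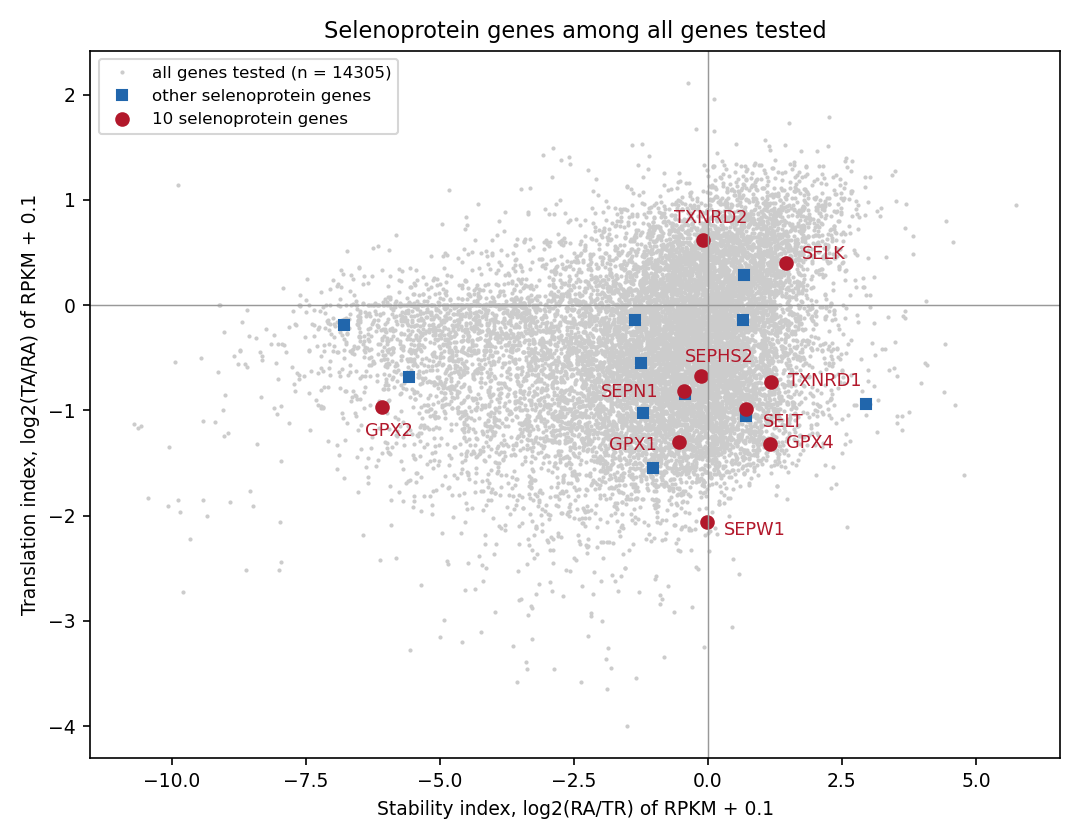
Translation index against stability index (log2 differences of RPKM + 0.1) for the 14305 genes tested in grey, the 10 selenoprotein genes in red with their names and the 11 other selenoprotein genes tested in blue squares. SEPW1 lies near the lower edge of the cloud, SELK and TXNRD2 lie above 0 on the vertical axis, and GPX2 stands far left among genes read mainly in TR.

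The TR libraries gave close values for each member, and the TA libraries lay farther apart from each other for most. The log2 difference between the TR libraries had an SD of 0.12 over the 10 genes, where all genes tested had 0.46. That between the TA libraries had an SD of 0.97, where all genes tested had 0.51. TA replicate 2 exceeded replicate 1 by 3.24-fold for SEPW1, 2.66-fold for GPX4, 2.43-fold for GPX1, 2.36-fold for SEPN1 and 1.91-fold for SELT. The difference of SEPW1 stood at the 99.4th percentile of all genes tested. SEPHS2 and TXNRD1 went the other way, with TA replicate 1 higher by 1.82-fold and 1.65-fold, at the 2.71st and 4.40th percentile. SELK and TXNRD2 differed least between the TA libraries, by 1.07-fold and 1.05-fold. RA replicate 2 stood apart for some of the same genes. It was 2.55-fold above RA replicate 1 for SEPHS2 and 1.62-fold above it for TXNRD1, and 2.65-fold below it for SEPN1, 1.59-fold below it for SEPW1 and 1.49-fold below it for GPX1. For these 5 genes, RA replicate 2 departed from RA replicate 1 in the direction in which TA replicate 1 departed from TA replicate 2. SELT went the other way, with RA replicate 2 at 1.10-fold of replicate 1. Over all 14305 genes tested the r of these differences was 0.50, so the pattern is not particular to the members. Across the 13713 tested genes with a matched transcript, the difference between the TA libraries went with the GC content of the transcript at a Pearson's r of 0.158 and a Spearman's rho of 0.143, which is across genes of 2 libraries. Over the 10 members, which share these libraries, the same r was 0.374 and rho 0.564. The part of GC content in these values was not tested.

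Within the selenoprotein genes the translation index differed by where the UGA lies, a pattern that was chosen after the values were seen and is given as a description with no test. For it, the 15 other human selenoprotein genes in the table were added, and genes with a mean RA under 1 RPKM were left out. In 6 genes the last UGA was within the last 3 sense codons. Their translation indices were 0.62 for TXNRD2, 0.40 for SELK, 0.28 for VIMP (selenoprotein S), -0.14 for SELO, -0.73 for TXNRD1 and -1.02 for TXNRD3, a median of 0.07. In the 12 genes with an earlier UGA the indices ran from -2.06 to -0.14 with a median of -0.96, none was above 0 and 7 were called lower, against 0 of the 6 and 29.2% of all genes. With centred libraries 1 of the 12, SEPW1, was called lower, and 2 of the 6, TXNRD2 and SELK, were called higher. The ranges overlapped, since TXNRD1 and TXNRD3 fell among the genes with an earlier UGA. EPT1, with the nearest UGA outside this limit at 11 codons from the end by the same count, had -0.14. Among the 10 members alone and without GPX2, the medians were 0.40 over 3 genes and -1.14 over 6.

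The same medians were 0.57 and -0.46 with centred libraries, 0.04 and -1.44 with TA replicate 1 alone, and 0.19 and -0.63 with TA replicate 2 alone. The groups also differed in other features of their transcripts. The median GC content was 47.5% with a late UGA and 56.9% with an earlier one, the untranslated share 41.7% and 62.0%, and the length 2112 and 1409.5 bases. With a late UGA the coding sequence held 94 codons in SELK and 189 in VIMP. It held 524 in TXNRD2, 643 in TXNRD3, 649 in TXNRD1 and 669 in SELO. With an earlier UGA it held 87 in SEPW1, 116 in MSRB1, 122 in C11orf31, 145 in SELM, 165 in SEP15 and 195 in SELT. The others had 197 in GPX4, 203 in GPX1, 304 in DIO3, 397 in EPT1, 448 in SEPHS2 and 590 in SEPN1. The part of these features was not tested. By the other measure of place, the 7 members with a UGA more than 50 bases before the last junction had stability indices between -6.09 and 1.15 with a median of -0.10, and 1 of them, GPX4, was called higher. The value of -6.09 is that of GPX2, which passed the filter only through TR and also enters the median. The next lowest was GPX1 at -0.53. The other 3 had 1.45 for SELK, 1.18 for TXNRD1 and -0.13 for SEPHS2. Both of these ranges hold genes with and without a call.

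**Figure D5:**
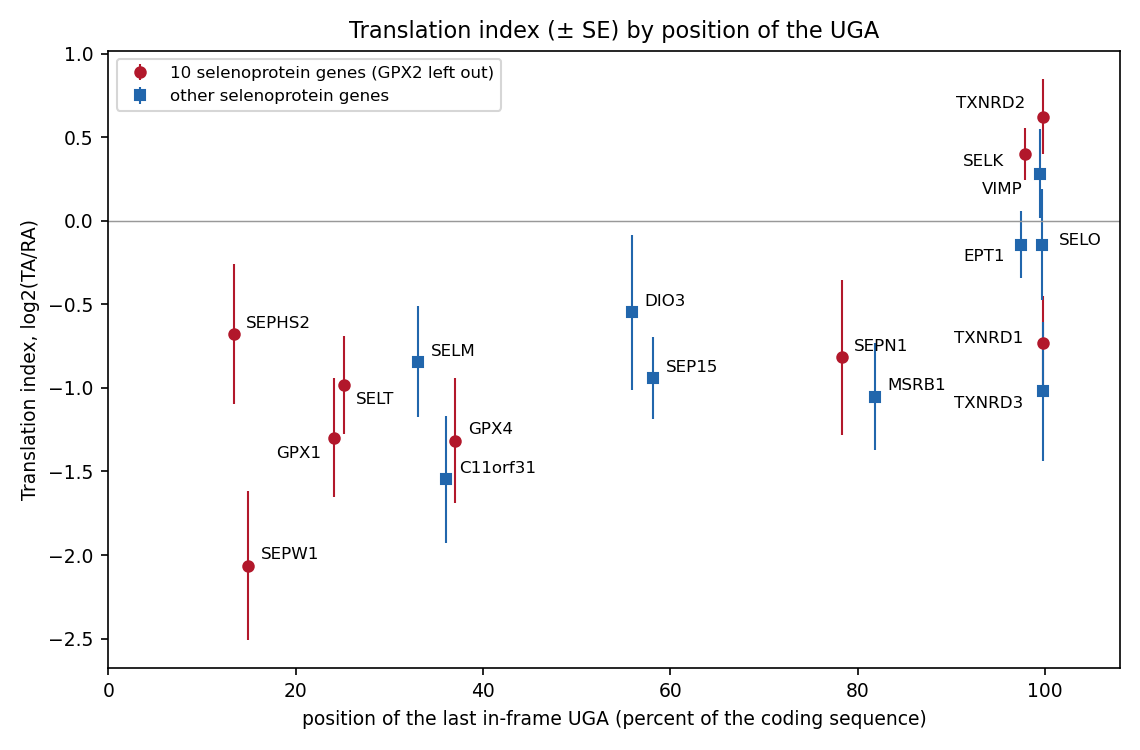
Translation index (log2 difference of RPKM + 0.1, bars are the standard error) against the position of the last in-frame UGA as a percent of the coding sequence, for 9 of the 10 genes in red circles and 9 other selenoprotein genes in blue squares, all with a mean RA of at least 1 RPKM. The 3 genes above 0 all carry the UGA within the last 3 sense codons. SELO, TXNRD1 and TXNRD3 carry it there too and lie below 0, SELO only slightly. Every gene with an earlier UGA is below 0, among them EPT1, whose UGA is at 97.5% of the coding sequence beside 97.9% in SELK.

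Of the other 15 selenoprotein genes in the table, 11 passed the filter and were tested. Of these, 2 had a higher stability index by the test and 6 a lower one, and 0 had a higher and 3 a lower translation index. The 6 include GPX3 and DIO1, which passed the filter only through TR. Of all genes tested, 19.2% were higher and 48.0% lower in the stability index, and 6.66% and 29.2% in the translation index. The counts of the lists below are to be read against the same shares. GPX6 was listed at 0 in every library, SELV at 0 in every RA and TA library, and GPX3 had at most 3 reads in any of these. SEP15, a thioredoxin-like protein of the endoplasmic reticulum, had the highest stability index of the selenoprotein genes, 2.95 (standard error 0.24, adjusted p = 1.67e-05), beside a translation index of -0.94 (adjusted p = 0.0208). C11orf31 (selenoprotein H, a nucleolar protein) was lower in both, at -1.02 (adjusted p = 0.0418) and -1.55 (adjusted p = 0.0174). EPT1, an ethanolamine phosphotransferase, was higher in the stability index alone, at 0.66 (adjusted p = 0.0194). MSRB1, a methionine sulfoxide reductase, was lower in the translation index alone, at -1.05 (adjusted p = 0.0369), and SELM and VIMP passed neither test. No index of these genes was compared with the 10 members by a test.

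Relatives that hold cysteine in place of selenocysteine, or no selenocysteine, were 7, of which 5 were tested. In the stability index 1 was higher and 2 were lower, and in the translation index 0 were higher and 1 was lower. The lower one was MIEN1, a SEPW1 relative, with -0.83 (adjusted p = 0.00819) and -0.95 (adjusted p = 0.0121) in the stability and translation index. GPX8, a glutathione peroxidase of the endoplasmic reticulum, had -0.71 (adjusted p = 0.00796) and 0.24 (adjusted p = 0.328), and SEPHS1, the relative of SEPHS2, had 0.47 (adjusted p = 0.0480) and -0.0022 in the same order, where SEPHS2 had -0.13 and -0.68.

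The list called machinery here counted 14 genes, all tested. It holds genes that make or insert selenocysteine, regulate its insertion or supply selenium, and SEPHS1, which is also counted among the relatives above. The higher stability call of SEPHS1 enters both lists. In the stability index 4 were higher and 6 lower, and in the translation index 1 was higher and 2 were lower. Of all genes tested, 19.2% were higher and 48.0% lower in the stability index, and 6.66% and 29.2% in the translation index. The 6 lower genes include SCLY, which passed the filter only through TR. The genes with most mRNA were RPL30, a ribosomal protein that also binds the SECIS element, with a stability index of 2.94 (adjusted p = 0.000270), NCL, a nucleolar protein that binds it, with 1.25 (adjusted p = 0.00815), and EIF4A3, an exon junction protein, with 1.11 (adjusted p = 0.00501). SARS, which charges the selenocysteine tRNA with serine, had 1.05 (adjusted p = 0.0516), and TRIT1, which modifies it, had 0.30 (adjusted p = 0.323). The 3 translation calls, named after their values were seen, were EEFSEC at 0.75 (adjusted p = 0.0297), SECISBP2 at -0.90 (adjusted p = 0.0332) and SECISBP2L at -0.89 (adjusted p = 0.0182). All 9 redox partners were tested, and 6 had a higher stability index and 0 a lower one, with 2 higher and 0 lower in the translation index. TXN, the thioredoxin that TXNRD1 reduces, had a stability index of 2.36 (adjusted p = 2.85e-05), its mitochondrial form TXN2 1.24 (adjusted p = 0.000176), and GSR, which regenerates the glutathione used by the peroxidases, 1.97 (adjusted p = 1.47e-05). GSS, the last enzyme of glutathione synthesis, was higher in both indices, at 0.63 (adjusted p = 0.0142) and 0.74 (adjusted p = 0.0164). GCLC, the first enzyme, had 1.37 (adjusted p = 0.0127) and ACSL4, which loads membranes with the lipids that GPX4 protects, 1.68 (adjusted p = 0.000107) in the stability index, and neither was called in the translation index.

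By Euclidean distance over the 7 log2 values, the genes nearest to TXNRD1 were EIF4B (0.40), SREBF2 (0.63) and RAB25 (0.69). EIF4B averaged 43.3 RPKM in TR, 95.1 in RA and 61.7 in TA, where TXNRD1 averaged 44.0, 102 and 62.1. Those nearest to GPX1 were C17orf89 (0.59), ARF6 (0.62) and PPP1R14B (0.82), and those nearest to GPX4 were SLC25A39 (0.70), OST4 (0.79) and MLF2 (0.81). None of the 10 members was among these genes.

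Reads of some members can be shared with other genes, because neither a strand setting nor a counting mode is given in the sources used here. Of the exon bases of GPX1, 39.9% are also exons of a readthrough gene on the same strand that begins in RHOA, which ends 533 bases upstream and averaged 57.9 RPKM in TR and 326 in RA. GPX2 shares no exon base, but lies on the opposite strand inside CHURC1, which averaged 9.94 RPKM in TR, and inside CHURC1-FNTB, listed at 0 in every library. Its neighbours averaged 9.91 RPKM in TR for FNTB and 25.7 RPKM for RAB15, 3067 bases away, and these genes and RHOA were chosen after their values were seen. SEPN1 shares 8.59% of its exon bases with a protein-coding gene on its strand and 6.45% with a non-coding RNA on the other, and SELT shares 1.49% with SERP1. Neither gene that overlaps SEPN1 is among the genes of the deposited values, while SERP1 is. For SELK the exon length behind the deposited values was 818 bases where the canonical transcript has 1497, so its RPKM values rest on a shorter gene model than the one drawn here. In the other members that length was the longer one. It was 3062 against 1941 bases in TXNRD2, 1499 against 922 in GPX2, 1231 against 851 in GPX4 and 1183 against 899 in GPX1. The order of levels between genes rests on these lengths. The part of shared reads and of gene lengths in the values was not tested.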

How the data were processed

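The 7 libraries of HCT116 cells comprised 2 for TR (GRO-seq), 3 for RA (RNA-seq) and 2 for TA (polysome profiling). Reads were aligned to hg19 by the authors with TopHat and default settings, counted on exons by HTSeq-count, and deposited by the authors as RPKM for each gene in each library. The submitters' processing notes also name CASAVA. Versions, gene annotation, strand setting and counting mode are not given in the sources used here. RNA-seq and polysome libraries were made from mRNA isolated with a kit. A sequencing lane held 4 samples that are not named.

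RPKM values were used as deposited. Library sizes were worked out from them, with 100% of 111346 values above 0 giving whole reads within 0.001, and the floor of detection was set at 3 reads. In simulated tables this step found 7 of 7 library sizes, and gave exact reads for 99.6% of 11206 genes. These reads carry no molecular identifiers, so floors cover counting error only. The test covered 14305 genes whose mean reached 1 RPKM in TR, RA or TA. It was limma 3.58.1 (R 4.3.3, eBayes with trend) on log2(RPKM + 0.1) with the 7 libraries fitted together, and p-values were adjusted by Benjamini-Hochberg at 0.05. On simulated data for the translation index, limma called 100% of 193 genes changed by 2 on the log2 scale and 6 of 13560 genes in error. Tables were handled in Python 3.11.15 with pandas 2.3.3 and numpy 2.4.6, and plots drawn with matplotlib 3.10.9. UGA codons were read from GENCODE release 44 transcripts on GRCh37. Amino acid sequences were not used here.

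The members, the gene lists and the tests were chosen with earlier results of these data known. Named genes are the 10 members, the 6 genes of highest RA in each list, genes under the floor, the 3 genes nearest to GPX1, GPX4 and TXNRD1, and genes that overlap a member, of which 1 is not reported here. Alternatives were pseudocounts of 0.01 and 1, no filter, at least 1 RPKM in each parameter, centred libraries, a replicate block and each library left out. A crossed pairing and another pairing of TA with RA libraries were added after the data were seen.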

Additional observations from a re-analysis of the deposited data

How the results depend on the processing

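Over all alternatives, 110 of the members' stability indices kept their direction and side of the threshold, 3 newly passed with the same sign, 7 no longer passed and 9 changed sign. For the translation index these numbers were 111, 15, 23 and 0, and for TA against TR 110, 10, 4 and 5. Among those that changed sign, TXNRD2 in the stability index and GPX4 and SELT in TA against TR also newly passed, all with centred libraries. These and the counts of members below include GPX2, which passed the filter only through TR and has TA under the floor. SELK kept its stability call in every alternative. The cause of each change was not tested unless the alternative's construction gives it. The TR libraries hold the fewest reads, and with 2 libraries in TR and TA the 95% intervals of all members but SELK are wider than 1 on the log2 scale, so values near 0 do not show equal levels.

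With libraries centred on their medians, the stability index changed sign for GPX1 (0.14), TXNRD2 (0.58), SEPW1 (0.66), SEPHS2 (0.55) and SEPN1 (0.22), and TA against TR for GPX4 (1.01), SELT (0.90) and SEPHS2 (0.37). The members called were then 5 higher in the stability index, 2 higher and 1 lower in the translation index, and 5 higher and 1 lower in TA against TR. Of the cysteine relatives 1 was called in the stability index, 2 in the translation index and 4 in TA against TR, and translation calls numbered 0 among the other selenoprotein genes, 6 in the machinery and 4 among redox partners. With at least 1 RPKM in each parameter GPX2 was not tested, which left 0 members lower in the stability index, and the machinery had 5 translation calls. In all genes this filter gave 3656 lower stability calls in place of 6870, and 4935 lower calls in place of 8231 for TA against TR.

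With the replicate numbers as a block, 0 members had a lower translation index, and 0 genes of the other 4 lists were called in it. In the stability index 5 other selenoprotein genes, 1 cysteine relative and 6 machinery genes were called, SEPHS2 stood at 0.040 and GPX4, at 1.08 (limma adjusted p = 0.0913), lost its call, which left 2 members higher. All genes gave 109 higher and 1387 lower translation calls under the block, in place of 953 and 4173. The study describes cells divided between the parameters, but the labels join libraries across parameters only by a number, and no pairing was read from it. The r of their deviations across genes was 0.08 for TR with RA, 0.01 for TR with TA and -0.50 for RA with TA. It was 0.63 for RA replicates 2 and 3 with TA replicates 1 and 2. A crossed pairing as block, chosen after seeing the data, gave 8 members with a lower translation index, 5 other selenoprotein genes and 6 machinery genes called, and 1164 higher and 4894 lower calls among all genes. A block that joined RA replicate 2 to TA replicate 1 and RA replicate 3 to TA replicate 2, also chosen after seeing the data, gave 8 members lower and 1 higher, with 5 other selenoprotein genes, 3 cysteine relatives and 10 machinery genes called, and 1889 and 5825 calls among all genes.

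Leaving out 1 library at a time, a lone library being assumed to vary like the other groups, gave between 1 and 4 members higher in the stability index. In the translation index it gave between 0 and 1 higher and between 0 and 5 lower, and in TA against TR between 1 and 2 higher and between 2 and 6 lower. The stability calls ranged from 3 to 9 among the other selenoprotein genes, from 1 to 2 among the cysteine relatives and from 5 to 10 in the machinery. The translation calls ranged from 0 to 4, from 0 to 2 and from 0 to 5 in these lists, and from 0 to 2 among redox partners. In TA against TR they ranged from 5 to 9 among other selenoprotein genes, from 1 to 3 among cysteine relatives and from 5 to 8 among redox partners. The stability index ranged from -0.15 to 0.19 for SEPW1, above 0 only without RA replicate 2, and from -0.55 to 0.13 for SEPHS2, above 0 without RA replicate 1 and without RA replicate 3. TA against TR ranged from -0.87 to 0.54 for GPX4 and from -0.74 to 0.19 for SELT, above 0 only without TA replicate 1. Among all genes the higher and lower translation calls were 198 and 1803 without TA replicate 1, 456 and 2854 without TA replicate 2, and 422 and 2805 without RA replicate 3.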
